A study of Mus musculus with 8 samples.

Results

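The heat-shock proteins and DnaJ cochaperones were described in cardiac fibroblasts from wild type (WT) mice and from mice with *Lmna*, the gene of the nuclear envelope protein lamin A/C, deleted in most but not all fibroblasts. The members are the genes whose symbol begins with Hspa, Hspb, Hspd, Hspe, Hsph, Hsp90 or Dnaj, without *Hspbap1* and *Hspbp1*. Of these 2, *Hspbp1* is read with the partners of the chaperones instead. This rule gives 71 of the 18957 genes listed, 27 heat-shock proteins and 44 DnaJ proteins. By family they are 11 HSP70, 3 HSP110, 3 HSP90, 2 HSP60/10 and 8 small heat-shock proteins, with 4 DNAJA, 13 DNAJB and 27 DNAJC proteins. The small heat-shock proteins are counted by symbol and include *Hspb11*, which encodes the intraflagellar transport protein IFT25. RNA came from 4 WT littermates and 4 Pdgfra-Cre:LmnaF/F mice aged 3 to 4 weeks, all labelled C57BL/6 (mixed), as 1 library per mouse. The Pdgfra-Cre:LmnaF/F mice carry a Cre transgene under *Pdgfra* control and 2 floxed *Lmna* alleles that lose exon 2. The WT mice carry neither, and mice with the Cre alone are not among the libraries, so the Cre and the deletion cannot be told apart. Cre driven by *Pdgfra* also deletes *Lmna* in a subset of cardiac myocytes. Cells were released from ventricles by collagenase and sorted as PDGFRA positive, lineage negative and live.

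Chaperones keep other proteins folded. HSP70 proteins bind and release unfolded stretches in cycles driven by ATP, DnaJ proteins deliver clients and speed up the hydrolysis step, and HSP110 proteins help exchange the nucleotide. HSP90 acts later, on partly folded clients that it helps to mature, HSP60 and HSP10 form a folding chamber in mitochondria, and small heat-shock proteins hold unfolded proteins without ATP. Heat shock factor 1 induces a core of these genes when cytosolic proteins unfold, and the unfolded protein response induces another group when folding fails in the endoplasmic reticulum (ER). Several small heat-shock proteins are abundant in heart muscle, and mutations of the BAG3 and αB-crystallin branch cause cardiomyopathy.

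Promoters were searched for the motifs of these control routes, and the stretches below were chosen because the stress-inducible HSP70 pair and the ER members are described under the results. RefSeq promoters of GRCm38.p6, which run from 250 bases before the start of the transcript to 50 bases after it, were found for 58 of the 71 members. Positions are counted from the transcript start, with -1 as the first base before it, and capitals mark the motif. *Hspa1a* and *Hspa1b* lie on the minus strand of chromosome 17, 9951 bases apart, and their promoter windows differ at 4 of 300 bases. The stretches are chr17:34972157-34972296 for *Hspa1a* and chr17:34959239-34959378 for *Hspa1b*, from -140 to -1, with 1 pair of heat shock units (GAANNTTC) at -104 to -97.
Hspa1a: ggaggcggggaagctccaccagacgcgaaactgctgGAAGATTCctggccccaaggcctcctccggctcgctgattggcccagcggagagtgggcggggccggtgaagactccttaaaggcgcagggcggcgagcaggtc
Hspa1b: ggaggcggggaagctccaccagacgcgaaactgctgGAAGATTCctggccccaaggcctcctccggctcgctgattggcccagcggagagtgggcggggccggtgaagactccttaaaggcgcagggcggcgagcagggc

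A stricter heat shock element of 3 alternating GAA and TTC units, each 2 bases apart and in either order, was in the promoters of *Hspd1*, *Hspe1*, *Hsph1* and *Dnajb6*, which are 4 of 58 members. Counted by gene, it was in 0.662% of the 27025 genes with a promoter in the table, and the pair of units, a search added after the sequences were seen, was in 9.04% of them and in 14 of 58 members. *Hspd1* and *Hspe1*, which encode HSP60 and HSP10, start head to head on chromosome 1 and share 1 run of units. It is shown from the *Hspe1* side, on the plus strand at chr1:55088053-55088082, positions -95 to -66.
Hspe1: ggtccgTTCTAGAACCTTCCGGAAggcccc

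The ER stress element, CCAAT and CCACG with 9 free bases between them on either strand, was in the promoters of *Hspa5*, *Hsp90b1* and *Dnajc3* and in 0.137% of those genes. *Hspa5* encodes BiP, the HSP70 of the ER lumen, *Hsp90b1* the ER form of HSP90, and *Dnajc3* the ER protein p58IPK. The stretches are chr2:34772019-34772048 (plus strand, -71 to -42), chr10:86705510-86705664 (minus strand, -220 to -66, with 2 elements) and chr14:118937792-118937931 (plus strand, -140 to -1). A match describes the letters of the window and says nothing about binding in these cells.
Hspa5: acttcaCCAATCGGAGGCCTCCACGacggg
Hsp90b1: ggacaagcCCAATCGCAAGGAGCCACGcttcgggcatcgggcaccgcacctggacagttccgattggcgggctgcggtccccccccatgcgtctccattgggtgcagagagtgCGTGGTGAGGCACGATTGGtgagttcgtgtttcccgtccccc
Dnajc3: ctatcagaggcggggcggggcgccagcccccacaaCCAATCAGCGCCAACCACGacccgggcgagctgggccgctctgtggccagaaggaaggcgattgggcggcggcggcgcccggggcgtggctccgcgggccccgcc

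The libraries held between 2080555 counts, in WT replicate 2, and 12502949 counts, and levels are given as CPM, the counts divided by the library total and scaled by TMM factors. *Lmna* (chromosome 3) was 365 ± 88.4 CPM in WT and 111 ± 20 CPM in Pdgfra-Cre:LmnaF/F libraries (mean ± SD, n = 4 each), and its log2 fold change was -1.72 ± 0.22 (SE) with an adjusted p of 0.00492 in the quasi-likelihood test of edgeR. Every mutant library still held *Lmna* RNA, at 126, 97.4, 130 and 90.4 CPM, so the loss was partial; counts are per gene, so transcripts without exon 2 cannot be told from intact ones. Fibroblast markers were high in all libraries, with 8 genes summing to between 41473 and 56572 CPM. Pdgfra-Cre:LmnaF/F replicate 4 stood apart by its cardiac myocyte markers, whose 10 genes summed to 3476 CPM there and to between 246 and 772 CPM in the other 7 libraries. None of those 10 genes was at 0 in any library. Its leukocyte markers summed to 375 CPM, against at most 152 CPM elsewhere, while 4 of these 6 genes (*Ptprc*, *Cd68*, *Cd52*, *Itgam*) were at 0 in at least 1 library. WT replicate 3 had the lowest correlation with the other WT libraries and is left out together with it where stated.

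The chaperone genes took 0.429% to 0.702% of all counts in a library, and this share overlapped between the genotypes. The highest levels per kilobase of exon belonged to *Hspa8*, *Hspa5*, *Hsp90ab1*, *Hsp90b1*, *Hspb1* and *Dnajc3*, in this order in both genotypes. *Hspa8*, the constitutive HSP70 of the cytosol, averaged 224 CPM per kb in WT and 244 in Pdgfra-Cre:LmnaF/F libraries. *Hspa1b* and *Hspa1a*, its stress-inducible relatives, were at 6.69 and 1.34 CPM per kb in WT and at 18.6 and 4.70 in Pdgfra-Cre:LmnaF/F libraries. *Hspa8*, *Hspa5*, *Hsp90ab1* and *Hsp90b1* together held between 36.3% and 51.3% of the counts of all members. Some levels are uncertain because transcripts of other genes hold the same stretches. The share of 150-base windows found unchanged in another gene was 55.4% for *Hspa8*, 36.6% for *Hspb1*, 36.2% for *Hsp90aa1*, 26.1% for *Dnajb6* and 18.6% for *Hspd1*, and 56 of 71 members had none. In the annotation the spans of 21 members, introns included, overlap that of a gene on the other strand, among them *Hspa12a*, *Hspb2* with *Cryab*, and *Hspd1* with *Hspe1*. Where exons overlap, reads can be told apart only if strand was used in counting. The spans of 4 members overlap that of a gene on the same strand, where strand does not help.

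**Figure D1:**
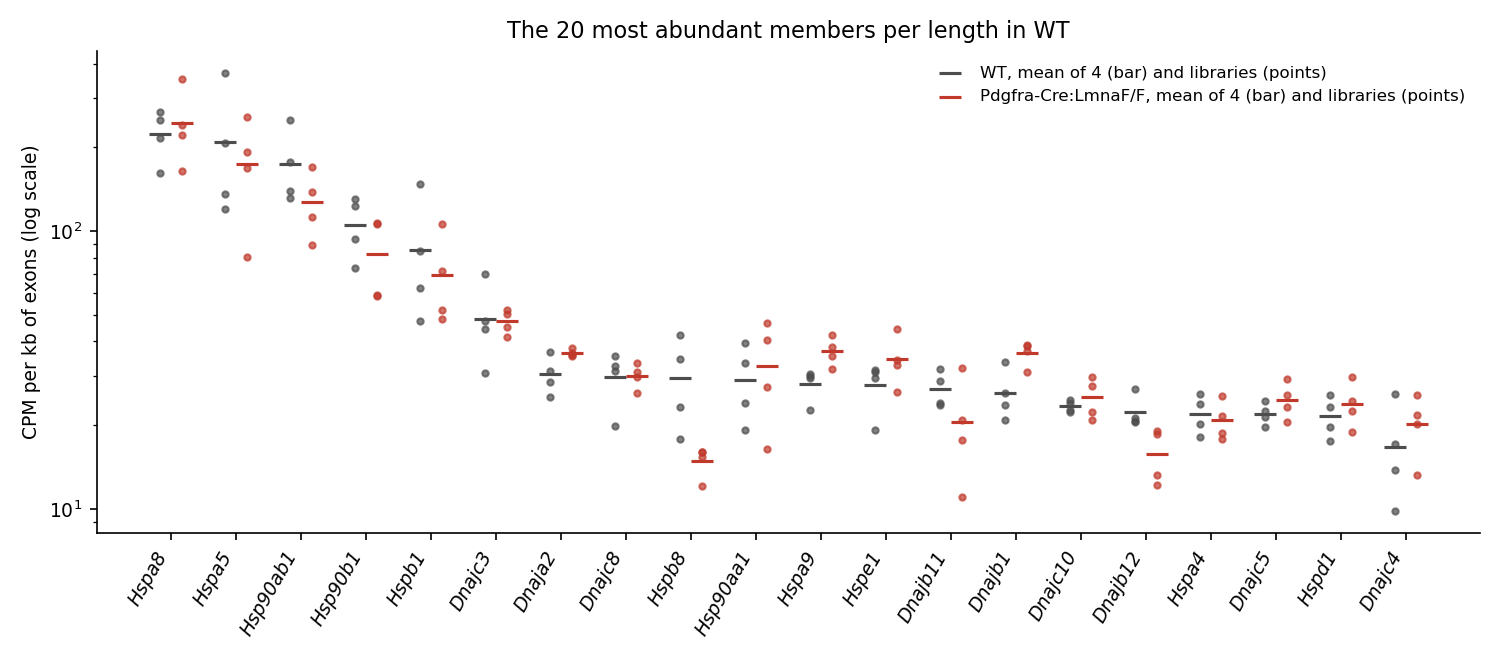
Levels of the 20 members with the highest WT level, in CPM per kb of exons on a log axis; bars are the means of 4 libraries and points the libraries. The first 6 genes keep their order in both genotypes, and the libraries of *Hspb8*, with means of 29.4 in WT and 14.9 in Pdgfra-Cre:LmnaF/F, and of *Dnajb12*, with means of 22.3 and 15.8, are all lower in the mutants.

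Of the 71 members, 61 had enough counts to be tested. In edgeR with its count filter and all libraries none passed an adjusted p of 0.05, where 53 of 13036 genes did (0.407%), while DESeq2 and edgeR with no filter each called 1 member, *Hspa1b*. At an unadjusted p under 0.05 there were 10 members, 5 higher and 5 lower in Pdgfra-Cre:LmnaF/F libraries, which is 16.4% of those tested beside 11.9% of all genes tested (6.24% higher and 5.65% lower). The libraries of the genotypes did not overlap for 8 members, 3 above and 5 below WT, where this held for 8.03% of all genes (4.06% above and 3.97% below). The median log2 fold change was 0.16 over the members, with 38 of 61 positive, and 0.025 over all genes. For 49 of the 61 members the fitted change was under 1.5-fold, and the median SE was 0.30 on the log2 scale.

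**Figure D2:**
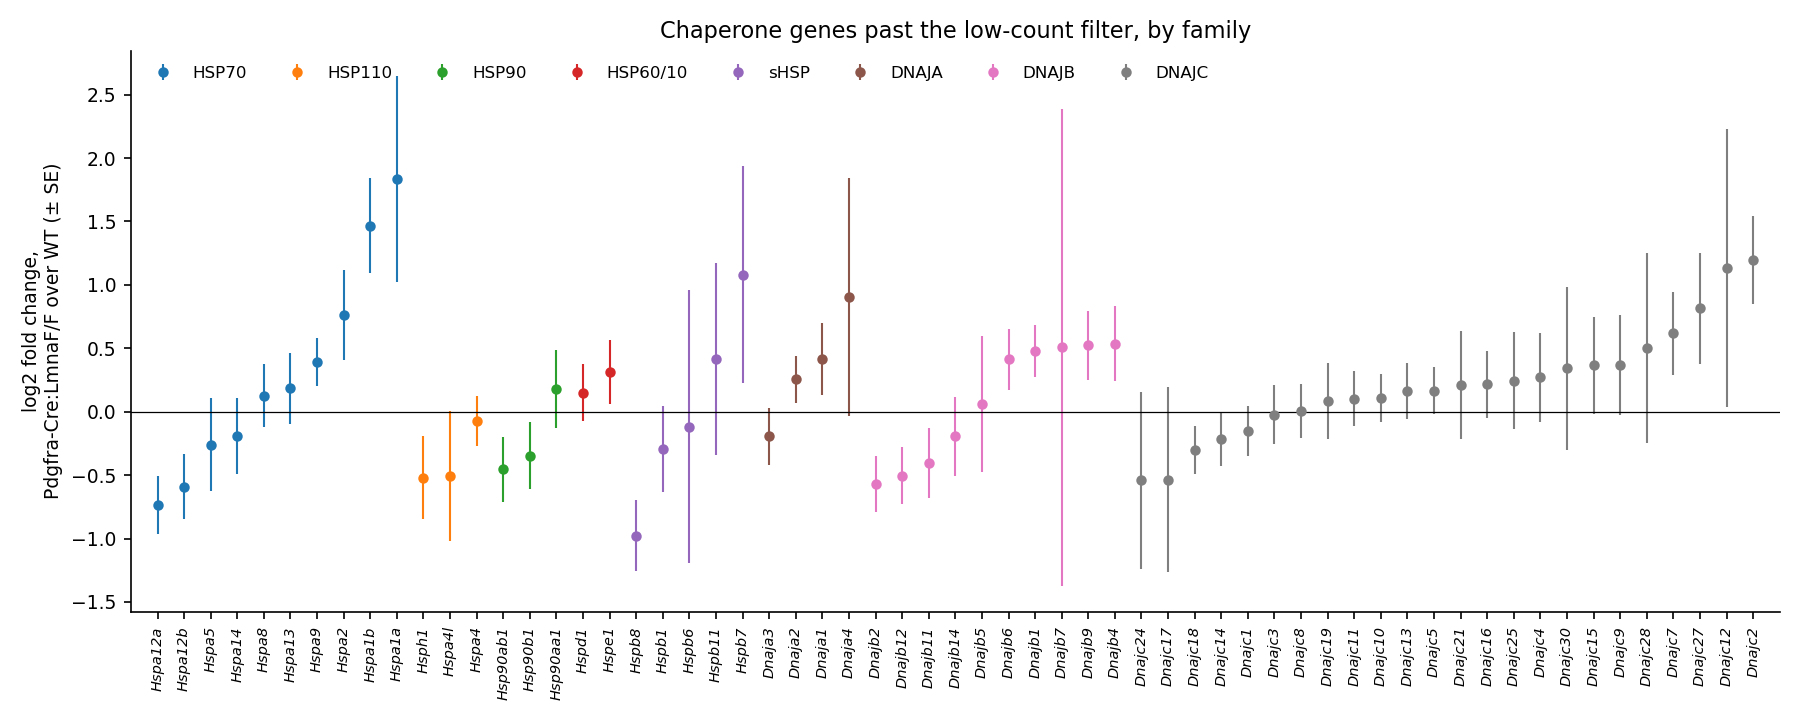
Log2 fold change of Pdgfra-Cre:LmnaF/F over WT with its standard error for the 61 members tested, ordered within each family. The values run from -0.98 for *Hspb8* to 1.83 for *Hspa1a*, and 35 of the 61 lie within 1 SE of 0.

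With all libraries in the fit, the stress-inducible HSP70 genes had the highest fold changes. *Hspa1b* was at 16.6, 14.6, 22.7 and 21.1 CPM in the WT libraries (replicates 1 to 4, here and in each list of values) and at 90.9, 60.8, 33.8 and 23.4 CPM in the Pdgfra-Cre:LmnaF/F libraries. Each Pdgfra-Cre:LmnaF/F library was above each WT library, replicate 4 only just, and the spread was far wider in the mutants. The log2 fold change was 1.47 ± 0.37 (SE), or 2.76-fold, with an unadjusted p of 0.00143 and an adjusted p of 0.124 in edgeR. DESeq2 gave an adjusted p of 0.0211 for the same counts, where it called 310 genes (2.21%), and 0.0133 with 1 RUVr factor, where it called 472 (2.49%). In edgeR the adjusted p was 0.00899 with no filter (274 genes, 1.45%) and 0.0312 without Pdgfra-Cre:LmnaF/F replicate 4, with a log2 fold change of 1.71 (76 genes, 0.565%). Limma-voom gave 0.0779 (126 genes, 0.967%), and without mutant replicate 1 the log2 fold change was 1.05 with an adjusted p of 0.214 in edgeR (52 genes, 0.384%). The highest adjusted p over all fits was 0.307, without WT replicate 2, and the replicate block gave 0.260.

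*Hspa1a* was at 4.95, 6.04, 0.479 and 4.45 CPM in WT and at 30.9, 2.19, 16.1 and 6.58 CPM in Pdgfra-Cre:LmnaF/F libraries. It overlapped between the genotypes, since mutant replicate 2 lay below 3 WT libraries. The fit gave a log2 fold change of 1.83 ± 0.81 (SE) with an adjusted p of 0.393 in edgeR. Without mutant replicate 1, its highest library, the log2 fold change was 1.07, and without mutant replicate 2 it was 2.19. The transcripts of the pair are nearly the same, with 39.7% of the 150-base windows of *Hspa1a* and 40.5% of those of *Hspa1b* found unchanged in another gene, so reads may be split or lost between them.

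Summing the pair removes the split between its genes, but not any loss of reads that match more than 1 gene. The sum was 21.6, 20.6, 23.2 and 25.6 CPM in WT libraries and 122, 63.0, 50.0 and 30 CPM in the mutants in the same order. The mutant libraries thus spanned from just above WT to several times WT. With both genes merged into 1 before the fit, the log2 fold change was 1.54 ± 0.35 (SE), with an unadjusted p of 0.000608 and an adjusted p of 0.0871 in edgeR. The pair made up 1.85% to 3.54% of the counts of the pair and *Hspa8* in WT and 4.0% to 10.6% in Pdgfra-Cre:LmnaF/F libraries, a share that the same loss could change.

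A list of 20 immediate-early genes known to respond to tissue dissociation had a higher sum in the mutants, as did the pair. The sum of the list was between 3722 and 7214 CPM in WT and between 9401 and 15174 CPM in Pdgfra-Cre:LmnaF/F libraries. Of these genes, 18 of 20 had a positive log2 fold change, 3 passed an adjusted p of 0.05 in edgeR (0.407% of all genes), 13 did not overlap between the genotypes (8.03% of all genes), and none was at 0 in any library. Within the mutants the highest immediate-early sum was in replicate 3 and the highest HSP70 sum in replicate 1. The part of the dissociation response in the HSP70 result was not tested.

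**Figure D3:**
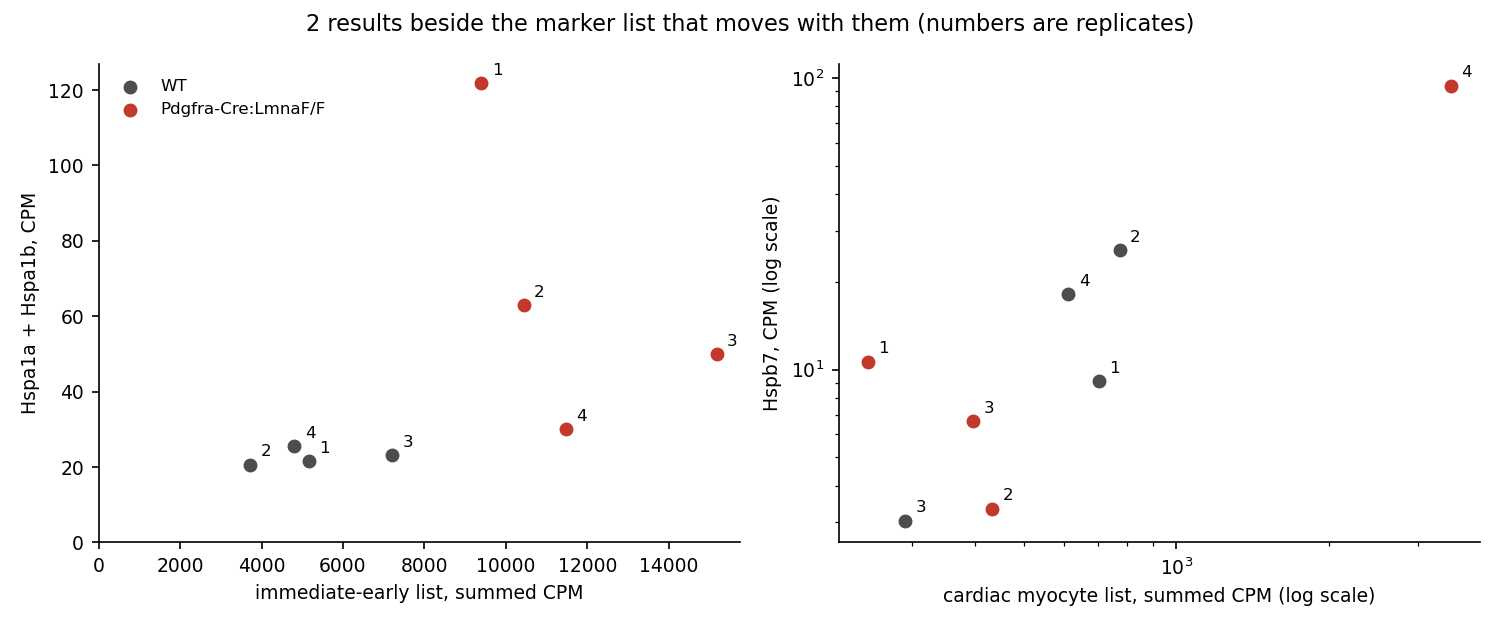
Left, summed CPM of *Hspa1a* and *Hspa1b* against the summed CPM of the immediate-early list; right, *Hspb7* against the summed cardiac myocyte markers, both axes on a log scale; each point is a library numbered by replicate. On the left the 4 WT libraries lie at 20.6 to 25.6 CPM and the mutants spread from 30 to 122 CPM, and on the right mutant replicate 4 lies alone at 94.2 CPM of *Hspb7*.

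The other genes of the heat-inducible core were nearer to WT. Of all 12 core genes, with *Hspa1a* and *Hspa1b* counted in, 9 were higher and 3 lower in the fit, with a median log2 fold change of 0.25. None passed an adjusted p of 0.05 in edgeR with its count filter and all libraries. *Hspa1b* was called in the fits given above, and *Dnajb4* in 1 fit without 2 libraries, given with its values. *Dnajb1*, the heat-inducible HSP40, was at 66.7, 75.5, 108 and 83.6 CPM in WT and at 124, 123, 119 and 99.7 CPM in Pdgfra-Cre:LmnaF/F libraries. Mutant replicate 4 lay below WT replicate 3, and the other mutants lay above every WT library. The log2 fold change was 0.48 ± 0.20 (SE), with an adjusted p of 0.37 in edgeR.

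*Dnajb4*, another class B HSP40, was at 48.9, 34.7, 89.8 and 43.1 CPM in WT and at 76.7, 88.9, 99.9 and 50.5 CPM in Pdgfra-Cre:LmnaF/F libraries. Its log2 fold change was 0.54 ± 0.30 (SE) with an adjusted p of 0.523 in edgeR. Without WT replicate 3 and mutant replicate 4, the highest WT and the lowest mutant library for this gene, it was 1.05 with an adjusted p of 0.0464, in a fit that called 130 genes (0.987%). These libraries were left out after their values were seen. *Dnaja1*, a class A HSP40, had a log2 fold change of 0.42 ± 0.29 (SE) and an adjusted p of 0.629 in edgeR.

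*Hsph1*, the heat-inducible HSP110, was at 38.0, 62.9, 32.9 and 24.1 CPM in WT and at 25.0, 38.7, 26.4 and 18.7 CPM in Pdgfra-Cre:LmnaF/F libraries. It thus had a negative log2 fold change, -0.52 ± 0.33 (SE). Its promoter window holds the 3-unit heat shock element, but after the transcript start. *Hspa8* gave 0.13 ± 0.25 (SE), and *Hspd1* and *Hspe1* gave 0.15 ± 0.22 and 0.31 ± 0.25 (SE). *Hspb1*, the small heat-shock protein HSP27 that associates with actin, gave -0.29 ± 0.34 (SE) and ranged from 48.9 to 151 CPM in WT. The libraries of the genotypes overlapped for each of these genes, and their adjusted p in edgeR was 0.584 or higher.

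Neither cytosolic HSP90 gene passed an adjusted p of 0.05 in edgeR. *Hsp90ab1*, the constitutive form, was at 530.3, 752, 394 and 418 CPM in WT and at 509, 414, 266 and 337 CPM in Pdgfra-Cre:LmnaF/F libraries. The fit gave a log2 fold change of -0.46 ± 0.26 (SE), and that of *Hsp90aa1*, the stress-inducible form, was 0.18 ± 0.31 (SE), with adjusted p of 0.527 and 0.884 in edgeR. Without mutant replicate 2 *Hsp90aa1* was at -0.042, and the difference between both genes was not tested. The share of *Hsp90aa1* in the counts of both was 15.1%, 17.1%, 25.0% and 15.3% in WT and 23.8%, 30.6%, 28.8% and 16.0% in Pdgfra-Cre:LmnaF/F libraries. Mutant replicate 4 lay among the WT libraries and WT replicate 3 among the mutants, and the means were 18.1% ± 4.67 and 24.8% ± 6.53 (SD, n = 4 each).

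**Figure D4:**
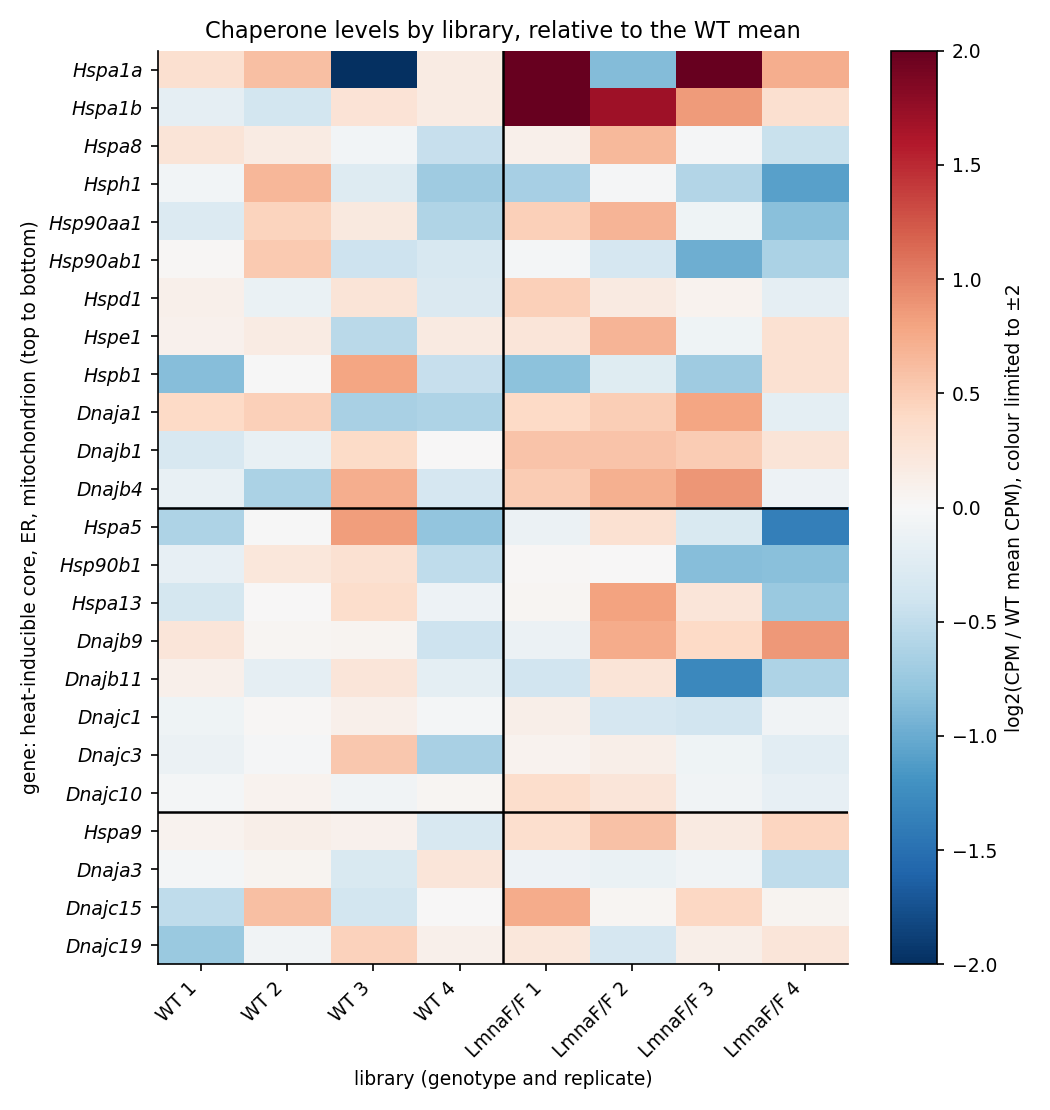
Level of each gene of the heat-inducible core, the ER group and the mitochondrial group in each library, as log2 of its CPM over the WT mean, with genotypes separated by the vertical line. Only the *Hspa1a* and *Hspa1b* cells reach the ends of the scale, and mutant replicate 4 is the lowest mutant library for 8 of the 12 core genes.

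The most abundant ER member varied widely within each genotype. *Hspa5* was at 576, 878, 1568 and 508 CPM in WT and at 810, 1084, 711 and 341 CPM in Pdgfra-Cre:LmnaF/F libraries. WT replicate 3 was the highest WT library for 6 of 8 ER genes, and mutant replicate 4 the lowest mutant for 4 of 8. The log2 fold change of *Hspa5* was -0.26 ± 0.37 (SE) with an adjusted p of 0.856 in edgeR, and it turned to 0.17 without WT replicate 3.

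*Hsp90b1* gave -0.35 ± 0.26 (SE), with libraries from 297 to 525 CPM in WT and from 235 to 431 CPM in the mutants. *Dnajc3* gave -0.02 ± 0.23 (SE), and the 3 genes with an ER stress element had an adjusted p of 0.674 or higher in edgeR. The sign of *Dnajc3* was not stable, since it was 0.25 with limma-voom and 0.27 without WT replicate 3 and mutant replicate 4, where *Hspa5* was 0.41. *Dnajb9*, a BiP cofactor and unfolded protein response target, was higher at 0.53 ± 0.27 (SE), with an adjusted p of 0.478 in edgeR. *Dnajb11*, another BiP cofactor, was lower at -0.41 ± 0.28 (SE). *Hspa13*, the microsomal HSP70, gave 0.19 ± 0.28, the membrane protein *Dnajc1* -0.16 ± 0.20 and the disulfide reductase *Dnajc10* 0.11 ± 0.19 (SE). Of all 13 members placed in the ER, 4 were positive and 9 negative, with a median of -0.19 and none past an adjusted p of 0.05 in edgeR.

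*Dnajb12*, an ER membrane protein whose J domain faces the cytosol, was at 91.2, 71.4, 69.0 and 69.5 CPM in WT and at 64.2, 40.9, 44.7 and 62.5 CPM in Pdgfra-Cre:LmnaF/F libraries. The genotypes did not overlap, although mutant replicates 1 and 4 came close to WT. Its log2 fold change was -0.51 ± 0.22 (SE), with an unadjusted p of 0.0396 and an adjusted p of 0.393 in edgeR. *Dnajc18*, another ER membrane J protein that did not overlap, is named for that reason after its values were seen and had -0.30 ± 0.19 (SE) with an adjusted p of 0.589 in edgeR.

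Of the 9 mitochondrial members, 8 had a positive log2 fold change, the median was 0.31 and none passed an adjusted p of 0.05 in edgeR. *Hspa9*, mortalin, the HSP70 of the matrix, was at 127, 132, 129 and 97.6 CPM in WT and at 153, 182, 138 and 164 CPM in Pdgfra-Cre:LmnaF/F libraries. The genotypes did not overlap, and the log2 fold change was 0.39 ± 0.19 (SE) with an unadjusted p of 0.0547 and an adjusted p of 0.434 in edgeR. The J proteins of the import motor, *Dnajc15* and *Dnajc19*, gave 0.37 ± 0.38 and 0.08 ± 0.30 (SE). *Dnaja3*, the matrix HSP40, was the exception at -0.19 ± 0.23 (SE).

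*Dnajc2* was the member with the largest fold change outside the inducible HSP70 pair among those below an unadjusted p of 0.05. It lies at chr5:21757267-21785251 (mm10) and encodes MPP11, a J protein that works with an HSP70 at the ribosome. It was at 14.4, 15.1, 10.5 and 9.53 CPM in WT and at 19.6, 39.8, 32 and 21.3 CPM in Pdgfra-Cre:LmnaF/F libraries. Every mutant library was above every WT library. The log2 fold change was 1.2 ± 0.35 (SE), with an unadjusted p of 0.00371 and an adjusted p of 0.173 in edgeR, and stayed between 0.98 and 1.33 when each library was left out.

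Of the other HSP70 relatives, 3 had an unadjusted p under 0.05 and none an adjusted p under 0.05 in edgeR. *Hspa2*, best known from spermatocytes, was at 41.6, 15.1, 12.6 and 29.9 CPM in WT and at 46.2, 38.2, 54.9 and 31.8 CPM in Pdgfra-Cre:LmnaF/F libraries, with 1 WT library among the mutants. The fit gave a log2 fold change of 0.76 ± 0.36 (SE) with an unadjusted p of 0.0499 and an adjusted p of 0.42 in edgeR. The distant relatives *Hspa12a* and *Hspa12b* had negative values.

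*Hspa12a* was at 80.0, 57.9, 60.4 and 77.9 CPM in WT and at 42.2, 52.9, 37.0 and 34.5 CPM in Pdgfra-Cre:LmnaF/F libraries, with no overlap. Its log2 fold change was -0.73 ± 0.23 (SE), with an unadjusted p of 0.00577 and an adjusted p of 0.199 in edgeR. *Hspa12b*, best known from endothelium, was at 43.4, 49.8, 42.3 and 34.2 CPM in WT and at 35.8, 30.2, 22.4 and 23.8 CPM in Pdgfra-Cre:LmnaF/F libraries, where mutant replicate 1 lay above WT replicate 4. The fit gave a log2 fold change of -0.59 ± 0.25 (SE) with an adjusted p of 0.376 in edgeR. The 6 endothelial markers summed to between 534 and 729 CPM in WT and between 409 and 514 CPM in the mutants, and none was at 0 in any library. Most of this sum was *Tek*, with a mean of 473 of 661 CPM in WT and 313 of 441 CPM in the mutants. The 6 of 6 fold changes were negative, from -1.17 ± 0.38 for *Cdh5* to -0.12 ± 0.38 (SE) for *Tie1*, and none passed an adjusted p of 0.05 in edgeR. The part of endothelial RNA in the *Hspa12b* value was not tested, and in bulk libraries fewer cells of a type and less RNA per cell cannot be told apart.

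*Dnajb2*, an HSP40 that binds ubiquitin, was at 65.3, 62.9, 65.0 and 46.9 CPM in WT and at 46.8, 41.3, 35.8 and 37.9 CPM in Pdgfra-Cre:LmnaF/F libraries. The groups did not overlap, but WT replicate 4 and mutant replicate 1 were level within 1 CPM. The log2 fold change was -0.57 ± 0.22 (SE), with an unadjusted p of 0.0206 and an adjusted p of 0.314 in edgeR.

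**Figure D5:**
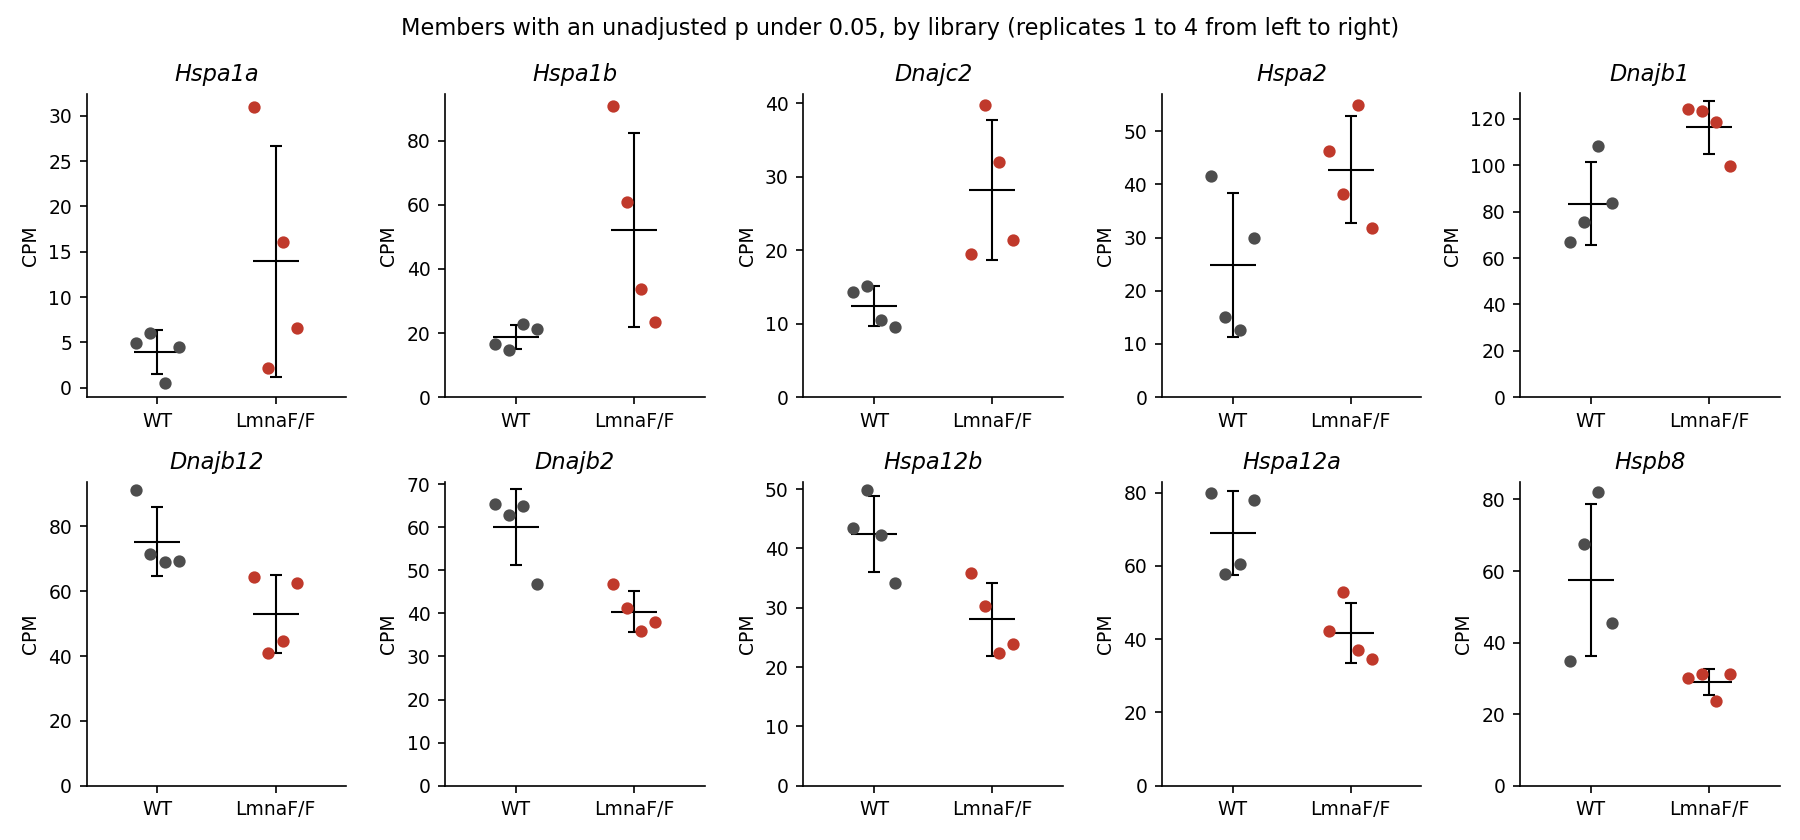
CPM of the 10 members with an unadjusted p under 0.05, by library; points are libraries, and bars are the mean ± SD of 4. *Hspa1b* and *Dnajc2* lie wholly above WT, *Hspb8*, *Hspa12a*, *Dnajb2* and *Dnajb12* wholly below, and the other 4 overlap.

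Among the small heat-shock proteins, *Hspb8* had the lowest fold change of all members. It lies at chr5:116408491-116422864 (mm10) and encodes HSP22, which works with BAG3 in the removal of damaged proteins. It was at 34.8, 67.4, 82.0 and 45.4 CPM in WT and at 30, 31.2, 23.6 and 31.3 CPM in Pdgfra-Cre:LmnaF/F libraries. The mutants lay close together below all WT libraries, and the spread was in WT. The log2 fold change was -0.98 ± 0.28 (SE), with an unadjusted p of 0.00359 and an adjusted p of 0.171 in edgeR, and stayed between -1.15 and -0.75 when each library was left out.

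*Hspb7*, the cardiovascular small heat-shock protein, was at 9.16, 25.7, 3.04 and 18.1 CPM in WT and at 10.7, 3.34, 6.68 and 94.2 CPM in Pdgfra-Cre:LmnaF/F libraries. The library with the high value is the one with the high cardiac myocyte markers. Its log2 fold change was 1.08 ± 0.86 (SE) with all libraries and -1.0 without that library, with adjusted p of 0.696 and 0.655 in edgeR. *Hspb2*, which was below the count filter, also had its highest count there, 51, against 0 to 27 in the other libraries. *Hspb6*, HSP20 of smooth and heart muscle, was at 13.7 CPM or less in every library, and *Hspb3* had 13 counts or fewer.

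The 10 members below the filter were *Hspa1l*, *Hspb2*, *Hspb3*, *Hspb9*, *Dnajb3*, *Dnajb8*, *Dnajb13*, *Dnajc5b*, *Dnajc5g* and *Dnajc6*, several of them best known from testis. No library had more than 79 counts of any of them, which was *Dnajb13* in WT replicate 3. The remaining DnaJ proteins gave no member past an adjusted p of 0.05 in edgeR. Of the 24 DNAJC proteins tested, 18 were positive with a median log2 fold change of 0.19, and of 10 DNAJB proteins 6 were positive with a median of 0.24.

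The partners of these chaperones were read from a list of 51 genes outside the rule, of which 49 were tested. In edgeR with its count filter and all libraries none passed an adjusted p of 0.05, 6 had an unadjusted p under 0.05 (12.2%, beside 11.9% of all genes), 1 higher and 5 lower, 25 were positive and 24 negative, and the median log2 fold change was 0.0076. *Cryab*, αB-crystallin, a small heat-shock protein named outside the Hspb series, had the lowest p. It was at 41.7, 78.0, 70.8 and 64.1 CPM in WT and at 39.7, 20.9, 28.0 and 19.2 CPM in Pdgfra-Cre:LmnaF/F libraries. The groups did not overlap, and its log2 fold change was -1.23 ± 0.29 (SE) with an adjusted p of 0.0951 in edgeR, 0.00894 in edgeR with no filter, 0.0483 without mutant replicate 1, and 0.0119 in DESeq2. Over the edgeR fits without 1 library, the adjusted p of *Cryab* went up to 0.249. The summed level of the 10 cardiac myocyte markers was 703, 772, 291 and 612 CPM in WT and 246, 432, 397 and 3476 CPM in Pdgfra-Cre:LmnaF/F libraries. It was thus lower in mutant replicates 1 to 3 than in WT replicates 1, 2 and 4, and highest in mutant replicate 4, where *Cryab* was lowest. Its part in the *Cryab* difference was not tested.

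*Serpinh1*, the collagen chaperone HSP47 of the ER, was by far the most abundant gene of the list. It was at 2390.5, 4302, 2259 and 2732 CPM in WT and at 1863, 2090.2, 1139.6 and 818 CPM in Pdgfra-Cre:LmnaF/F libraries, with no overlap. The fit gave a log2 fold change of -0.98 ± 0.30 (SE), with an adjusted p of 0.198 in edgeR and 0.0269 in DESeq2. Over the edgeR fits without 1 library, the adjusted p went up to 0.460. *Fkbp4*, a cochaperone of HSP90, gave -0.70 ± 0.27 (SE) with an adjusted p of 0.313 in edgeR.

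*Hsf1*, which encodes heat shock factor 1, was at 54.9, 36.2, 59.4 and 43.5 CPM in WT and at 44.1, 22, 33.7 and 34.2 CPM in Pdgfra-Cre:LmnaF/F libraries. Its RNA was thus on the low side at -0.54 ± 0.27 (SE), with an adjusted p of 0.457 in edgeR. *Bag3*, the partner of HSPB8, gave -0.45 ± 0.31 (SE) with an adjusted p of 0.623. Of the 7 genes for subunits of the CCT chaperonin, which folds actin and tubulin, that were found among the genes listed, 6 were positive. Their median log2 fold change was 0.18 and none passed an adjusted p of 0.05 in edgeR.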

How the data were processed

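RNA with a RIN above 8 from sorted PDGFRA positive cells was sequenced as strand-specific, ribosomal RNA depleted libraries with 150 bp paired-end reads. Reads were aligned by HISAT2 to the mm10 genome and assigned to GENCODE genes by featureCounts. The authors deposited these as whole-number counts per gene symbol, without scaling; the strand setting is not given in the sources used here. Totals were 2080555 to 12502949 counts per library, which limits counting error only. Of the symbols, 18918 matched GENCODE M21, as did all 71 members, and 24 symbols written as dates, none a member, were kept as listed.

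Counts were compared in R 4.3.3 with edgeR 4.0.16 (TMM factors, filterByExpr, quasi-likelihood test, two-sided) with no other term than genotype and with p adjusted by Benjamini-Hochberg over the 13036 genes tested. The study used DESeq2 with RUV, which entered as alternatives with limma 3.58.1 and DESeq2 1.42.0, besides other factors and filters, a replicate block and fits without 1 library at a time. The procedure was tested on simulated counts. The members and lists were chosen with earlier results of these data known. Named are *Lmna*, members with a p under 0.05, the heat-inducible, ER, mitochondrial and muscle-type members, the extremes, those below the filter, and of the partners the 3 lowest p with *Hsf1*, *Bag3*, *Cryab* and *Serpinh1*. Exon lengths and coordinates are from GENCODE M21, promoters from RefSeq. Motifs of the proteins were not analysed here.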

Additional observations from a re-analysis of the deposited data

Results flagged for a closer look

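In 85 groups of 4 libraries, 5 held a library far from the other 3, where chance gives about 1 in 20. *Hspb7* was at 94.2 CPM in Pdgfra-Cre:LmnaF/F replicate 4, against 3.34 to 10.7 CPM in the other mutants. *Hspe1* was at 28.3 CPM in WT replicate 3, against 43.6 to 46.4 CPM in the other WT libraries. WT replicate 4 was low for *Hspa9*, with 97.6 CPM against 127 to 132 CPM, and for *Dnajb2*, with 46.9 CPM against 62.9 to 65.3 CPM. *Dnajb12* was at 91.2 CPM in WT replicate 1, against 69.0 to 71.4 CPM.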

How the results depend on the processing

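The count of genes called rose from 53 to 310 with DESeq2, 472 with DESeq2 and 1 RUVr factor, 274 with no filter, 126 with limma-voom and 130 without WT replicate 3 and Pdgfra-Cre:LmnaF/F replicate 4 (chosen after seeing the data), and was 13 to 76 when each library was left out. Members called went from 0 to 1 (*Hspa1b*) with DESeq2, with DESeq2 and RUVr and with no filter, to 2 (*Hspa1b*, *Dnajb4*) without both libraries, and to 0 to 1 over single libraries. Partners called went from 0 to 2 (*Cryab*, *Serpinh1*) with both DESeq2 fits, 1 (*Cryab*) with no filter, and 0 to 1 over single libraries. The members' median log2 fold change stayed between 0.12 and 0.19 in all fits, and that of all genes shifted by -0.057 to 0.069. Replicate numbers are shared by the genotypes, and the correlations of same-numbered deviations were -0.030 to 0.040. No pairing of the mice was visible in them, but such correlations cannot exclude it. With the replicate block 36 genes and 0 members were called and the members' median was 0.13. Of the named members, the sign turned for *Hspa5* (0.025 with limma-voom, 0.41 without both libraries), *Dnajc3* (0.0205 and 0.0200 with RUVr in edgeR and DESeq2, 0.25 with limma-voom, 0.27 without both, 0.033 with the replicate block), *Hspb6* (0.24 and 0.28 with RUVr in edgeR and DESeq2) and *Hspb7* (-0.044 with limma-voom, -1.33 without both). Leaving out single libraries also turned *Hspa8* (-0.11 to 0.27), *Hsp90aa1* (-0.042 to 0.40), *Hspb1* (-0.57 to 0.11), *Hspa5* (-0.51 to 0.17), *Hspa13* (-0.10 to 0.40), *Dnajc3* (-0.19 to 0.21), *Dnajc19* (-0.10 to 0.28), *Hspb6* (-1.01 to 0.31) and *Hspb7* (-0.997 to 1.49). The causes were not tested. With 4 mice a group and a median SE of 0.30, changes of the size seen for most members were not detectable.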

Other observations

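Further partners, named after their values were seen, are given as values. *Hyou1*, an ER nucleotide exchange factor, was at 193, 387, 269 and 193 CPM in WT and at 241, 199, 121 and 63.7 CPM in Pdgfra-Cre:LmnaF/F libraries, and *Sdf2l1*, an ER partner of DnaJ proteins, was lower in every mutant library than in every WT library (log2 fold change -0.68 ± 0.33, SE, adjusted p of 0.427 in edgeR). *Fkbp5*, an HSP90 cochaperone known as a glucocorticoid target, was at 342 CPM in mutant replicate 4 and 166 CPM in WT replicate 2, against 25.8 to 93.1 CPM in the other libraries. *Ahsa2* was at 49.5 CPM in mutant replicate 3 and at 8.22 to 16.0 CPM elsewhere.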
